A study of Mus musculus with 12 samples.

Results

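The Cyp3a family was followed in liver RNA through 8 genes, chosen by their symbols: Cyp3a11, Cyp3a13, Cyp3a16, Cyp3a25, Cyp3a41a, Cyp3a41b, Cyp3a44 and Cyp3a59. They were 8 of the 26031 gene identifiers with counts. For 7 of them read counts were at hand in all 12 libraries, and Cyp3a41a had counts in 6. The mice were C57BL/6N, and their sex is not given in the sources used here. In the HFD PCN group, mice on a high-fat diet (HFD) were injected intraperitoneally with 50 mg/kg of PCN once daily for 4 days. The HFD Vehicle group had the same diet and 30% DMSO in corn oil on the same schedule, the HFD group had the diet and no injection, and the Chow group had regular chow and no injection. The diets began at 6 weeks of age and ran for 15 weeks. Each group had 3 libraries, named here by the numbers in their titles. The labels do not say whether each library is a separate animal, so the p-values measure only the spread between these libraries, which may be technical.

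CYP3A enzymes are heme-containing monooxygenases of the endoplasmic reticulum that oxidise steroids, bile acids and many drugs, and hepatocytes are their main site in the liver. Their genes are classical targets of the pregnane X receptor (PXR, encoded by Nr1i2), a nuclear receptor that binds DNA together with a retinoid X receptor. PCN, pregnenolone 16α-carbonitrile, is a man-made steroid and a strong ligand of PXR in rodents. The constitutive androstane receptor (CAR, encoded by Nr1i3) acts on many of the same genes. Electrons for the reaction come from the reductase Por and from cytochrome b5.

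Levels are given as normalized counts, that is, reads per gene divided by a size factor that puts the 12 libraries on 1 scale. A fold is the ratio of 2 group means of normalized counts. Rose and fell refer to genes with an adjusted p under 0.05 in the authors' deposited DESeq2 table of that comparison, unless edgeR is named. Summed counts of the 6 HFD Vehicle and HFD libraries were 7466378 to 38161486. For HFD PCN and Chow they were estimated at 11400000 to 35300000, since counts were given there for listed genes alone. In the 6 HFD Vehicle and HFD libraries the estimate was off by at most 16.3%. Those 6 libraries also set its scale, so its error in HFD PCN and Chow is not known. All 8 hepatocyte markers (Alb and others) had counts in the 6 complete libraries, with sums of 1399605 to 2205891 normalized counts in HFD Vehicle and 1630288 to 2235326 in HFD. The 3 intestinal markers found in the tables (of 5 listed) summed to at most 5.9.

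In the GRCm38 annotation 7 of the 8 members lie in 1 cluster on chromosome 5. On the minus strand follow Cyp3a16 (ENSMUSG00000038656, chr5:145436309-145469723), Cyp3a41b (ENSMUSG00000075552, chr5:145558664-145584730), Cyp3a41a (ENSMUSG00000075551, chr5:145694049-145720136), Cyp3a44 (ENSMUSG00000054417, chr5:145773983-145805874), Cyp3a11 (ENSMUSG00000056035, chr5:145854426-145879964) and Cyp3a25 (ENSMUSG00000029630, chr5:145977194-146009618). Cyp3a59 (ENSMUSG00000061292, chr5:146079257-146113287) ends the cluster on the plus strand. Cyp3a13 (ENSMUSG00000029727, chr5:137892932-137921619, minus strand) lies 7.42 Mb away from the cluster. The cluster also holds Cyp3a57 and the pseudogene Cyp3a63-ps, which had 34 and 4 counts in all over the 6 complete libraries.

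**Figure D1:**
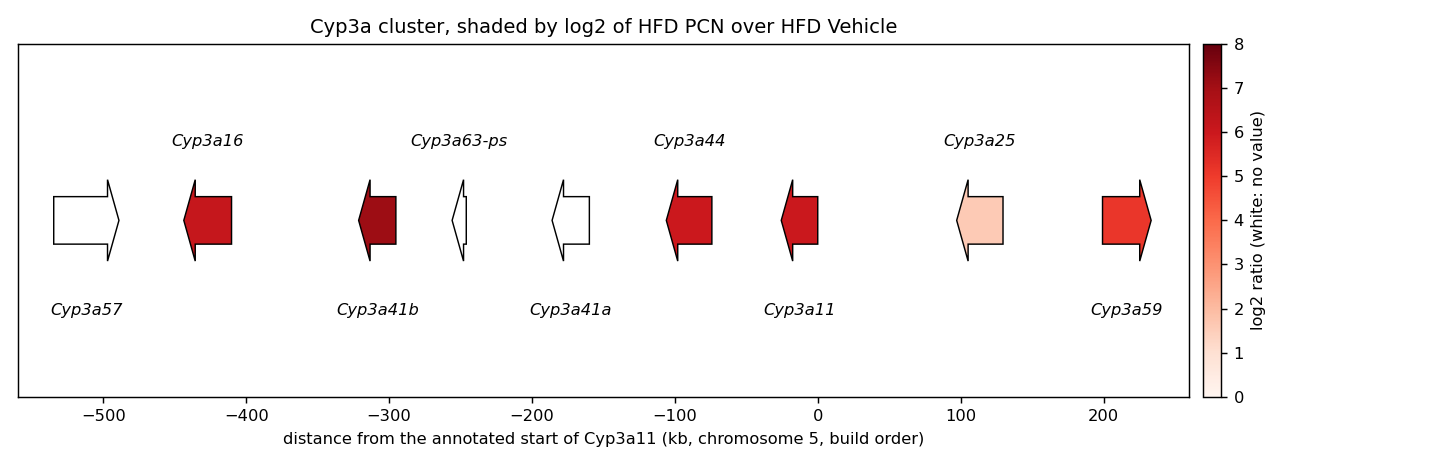
Map of the Cyp3a cluster on chromosome 5, with the distance from the annotated start of Cyp3a11 in kb on the x axis. Arrows point in the direction of transcription and are shaded by the log2 ratio of HFD PCN over HFD Vehicle, which runs from 1.61 for Cyp3a25 to 7.12 for Cyp3a41b; white genes have no value in that comparison.

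The members fall into sequence groups, which bear on how surely a read can be given to 1 of them. Over their coding sequences of 1512 or 1515 bases, Cyp3a41a and Cyp3a41b were 99.9% identical and differed at 2 bases. Cyp3a11 was 95.2% identical to Cyp3a41a, 94.9% to Cyp3a44 and 92.8% to Cyp3a16. Cyp3a25 and Cyp3a59 formed a second pair at 97.5%, with 38 mismatched bases. Between these groups, and with Cyp3a13, identity was 74.3% to 76.5%. Of all windows of 50 bases in the longest coding transcript, 93.5% of those of Cyp3a41b also occurred unchanged in another member. The share was 24.7% for Cyp3a59, 24.6% for Cyp3a25, 18.2% for Cyp3a44, 14.7% for Cyp3a11, 10.5% for Cyp3a16 and 0% for Cyp3a13. With windows of 100 bases it was 88.2% for Cyp3a41b, 5.61% for Cyp3a59, 2.79% for Cyp3a44 and 0.312% for Cyp3a11. Counts of Cyp3a41a and Cyp3a41b therefore cannot be told apart here, and the split of counts within each sequence group is uncertain. Read length and the treatment of reads with several hits are not given in the sources used here.

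**Figure D2:**
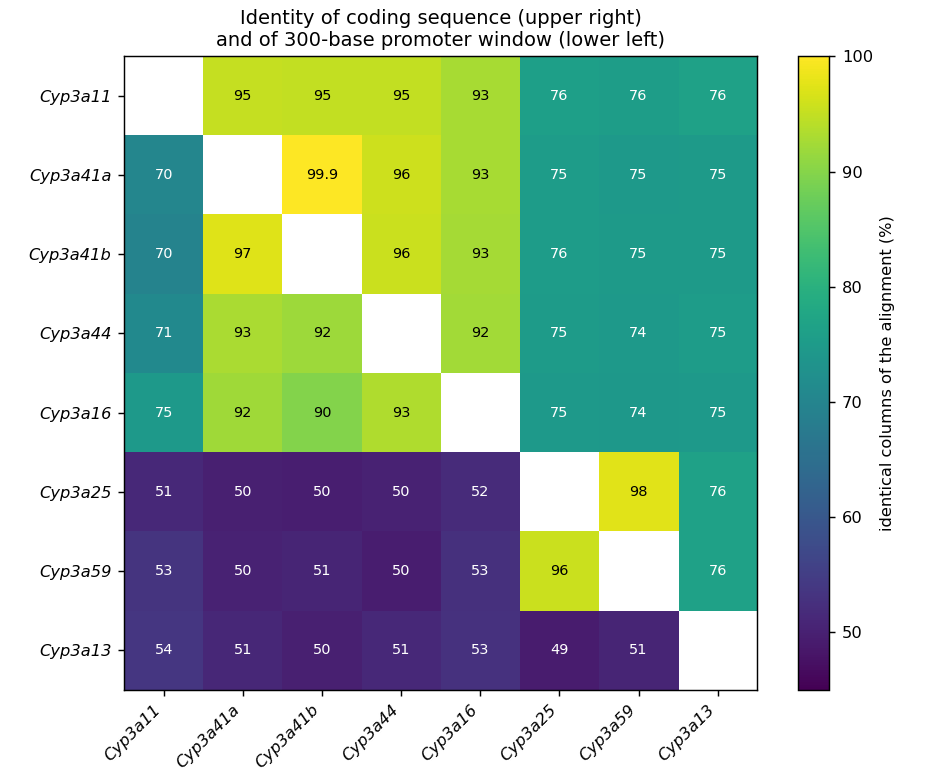
Identity between the 8 members, as the percentage of identical alignment columns, for coding sequences (upper right) and for promoter windows of 300 bases (lower left). Cyp3a25 and Cyp3a59 stand apart from the group of Cyp3a11, Cyp3a41a, Cyp3a41b, Cyp3a44 and Cyp3a16 above and below the diagonal, and Cyp3a13 is unlike every other member.

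The promoters of 5 members are shown because they include the near-identical pair of Cyp3a25 and Cyp3a59, whose ratios between PCN and vehicle were 3.06 and 35.1, and Cyp3a13, which was not called in that comparison. Each run gives the 250 bases before the RefSeq start on GRCm38.p6, written 5′ to 3′ on the gene's own strand. Capitals mark the nuclear receptor half-sites AGGTCA and AGTTCA, on either strand, and the letters TATAAA.
Cyp3a11, chr5:145879855-145880104, minus strand: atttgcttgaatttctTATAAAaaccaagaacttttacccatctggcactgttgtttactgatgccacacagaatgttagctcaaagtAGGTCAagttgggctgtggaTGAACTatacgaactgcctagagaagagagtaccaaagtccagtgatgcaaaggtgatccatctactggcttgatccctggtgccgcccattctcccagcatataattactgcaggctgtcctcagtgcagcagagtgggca
Cyp3a44, chr5:145805875-145806124, minus strand: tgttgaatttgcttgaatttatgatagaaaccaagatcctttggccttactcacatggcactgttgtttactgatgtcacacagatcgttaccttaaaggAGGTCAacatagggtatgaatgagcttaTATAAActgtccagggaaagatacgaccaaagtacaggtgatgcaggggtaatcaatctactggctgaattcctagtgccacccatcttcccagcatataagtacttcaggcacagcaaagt
Cyp3a25, chr5:146009619-146009868, minus strand: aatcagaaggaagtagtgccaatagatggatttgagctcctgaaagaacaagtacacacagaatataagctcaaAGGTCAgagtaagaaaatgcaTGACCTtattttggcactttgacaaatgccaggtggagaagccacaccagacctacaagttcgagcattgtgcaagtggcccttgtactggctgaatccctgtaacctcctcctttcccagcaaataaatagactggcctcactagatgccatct
Cyp3a59, chr5:146079008-146079257, plus strand: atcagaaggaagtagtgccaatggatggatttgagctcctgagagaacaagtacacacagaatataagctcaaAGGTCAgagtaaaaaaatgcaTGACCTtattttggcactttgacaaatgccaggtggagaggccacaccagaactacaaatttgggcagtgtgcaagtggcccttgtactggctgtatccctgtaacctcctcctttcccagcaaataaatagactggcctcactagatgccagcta
Cyp3a13, chr5:137921620-137921869, minus strand: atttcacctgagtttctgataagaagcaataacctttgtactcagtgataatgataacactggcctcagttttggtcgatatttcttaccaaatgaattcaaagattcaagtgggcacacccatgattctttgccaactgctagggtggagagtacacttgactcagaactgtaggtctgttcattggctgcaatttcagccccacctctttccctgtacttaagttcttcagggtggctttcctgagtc
The promoter windows of Cyp3a25 and Cyp3a59 were 95.7% identical over the window that also takes in the first 50 transcribed bases. Both carry AGGTCA 176 or 177 bases before the start and its reverse complement, TGACCT, 155 or 156 bases before it. The windows of Cyp3a16, Cyp3a41a, Cyp3a41b and Cyp3a44 were 89.9% to 97.3% identical to each other, while that of Cyp3a11 was 69.6% to 74.8% identical to theirs. In GENCODE M21 the longest coding transcript of Cyp3a11 starts 110 bases before the RefSeq start used here. The Cyp3a13 window was 49.2% to 53.7% identical to the others and held none of these letters.

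AGGTCA on either strand was in 4 of 8 members and in 16% of 27025 promoters of the same length. AGTTCA was in 3 of 8 members and 14% of promoters, and TATAAA in 5 of 8 members and 14.2% of promoters. Paired half-sites, with AGGTCA or AGTTCA in each place, were searched on both strands as DR1 (AGGTCANAGGTCA), DR3 (AGGTCANNNAGGTCA), DR4 (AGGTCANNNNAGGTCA), ER6 (TGACCTNNNNNNAGGTCA), ER8 (TGACCTNNNNNNNNAGGTCA) and IR0 (AGGTCATGACCT). Each pair contains 2 of the single half-sites. They were in 0.0111% to 0.0851% of all promoters and in 0 of the 8 members. Since the members' promoters are related to each other, their matches are not independent. A match or its absence in this window says nothing of where the receptor binds.

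PCN against the vehicle is the comparison of 2 injected groups. In the authors' deposited table, 6 of the 8 members rose with PCN and 0 fell, where 1.07% of the 25879 genes tested rose and 0.641% fell. The 6 were Cyp3a11, Cyp3a44, Cyp3a16, Cyp3a41b, Cyp3a59 and Cyp3a25. Cyp3a13 did not pass, and Cyp3a41a was listed in no HFD PCN table, so its level with PCN is unknown here. The median log2 ratio of the 7 members with counts was 5.57 (with 0.5 added to each mean), against 0.05 over the 2440 genes with counts in both groups (all of these genes, and the 7 members, were called in at least 1 comparison). Hepatocyte markers summed to 930389 to 1456453 normalized counts in HFD PCN and 1312073 to 2100844 in HFD Vehicle over the 7 with counts in 12 libraries, and 0 of 8 were called in the authors' deposited table. Their part in the results was not tested, and in bulk tissue fewer cells of a type and less RNA per cell cannot be told apart.

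Cyp3a11 is the main PXR-inducible CYP3A of mouse liver and is often taken as the counterpart of human CYP3A4. It had 903837, 353941 and 747068 normalized counts in HFD PCN replicates 5, 11 and 27, against 5787, 21636 and 3844 in HFD Vehicle replicates 15, 23 and 55. All 3 HFD PCN libraries lay far above all 3 HFD Vehicle libraries, and replicate 23 stood above the other 2 of its group. Cyp3a11 was 64.1-fold higher with PCN, and 139-fold higher without HFD Vehicle replicate 23. Its adjusted p was 0.00019, and the authors' deposited table gives a log2 change of 1.72. The ratio of means is 6.00 on the log2 scale, as is the change in a repeated DESeq2 fit without moderation. The deposited log2 changes appear to be moderated toward 0 and are not used as sizes here.

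Cyp3a44 encodes a form known as female-predominant in mouse liver. It had 1568, 665.3 and 1160 normalized counts in HFD PCN replicates 5, 11 and 27, against 10.4, 32.7 and 10.2 in HFD Vehicle replicates 15, 23 and 55. The groups did not overlap. Cyp3a44 was 63.7-fold higher with PCN, and 110-fold higher without HFD Vehicle replicate 23. In the authors' deposited table Cyp3a44 had the smallest adjusted p of the members, 1.11e-41.

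Cyp3a16, known as a form of fetal and newborn liver, had 169, 14 and 92 counts in HFD PCN replicates 5, 11 and 27, against 0, 3 and 0 counts in HFD Vehicle replicates 15, 23 and 55. Summed over the libraries the ratio was 82.5, with an exact 95% interval of 27.9 to 403 that covers counting error only. Cyp3a41b, also known as female-predominant, had 126, 17 and 39 counts in HFD PCN against 0, 1 and 0 in HFD Vehicle. Its summed ratio was 164, with an interval of 29 to 6510. All vehicle counts of both members came from replicate 23, and with PCN their normalized counts were 23.6 to 95.7 and 28.6 to 68.8. Their adjusted p in the authors' deposited table was 1.35e-09 for Cyp3a16 and 4.39e-10 for Cyp3a41b.

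The normalized counts of Cyp3a44 kept a narrow ratio to those of Cyp3a11, taken here without regard to length. In the 12 libraries Cyp3a11 spanned 235-fold between its lowest and highest library, and Cyp3a44 held 0.0899% to 0.265% of the Cyp3a11 count in each of them. By group the share was 0.155% to 0.188% in HFD PCN, 0.151% to 0.265% in HFD Vehicle, 0.0899% to 0.19% in HFD and 0.12% to 0.149% in Chow. Cyp3a16 held 0% to 0.0167% and Cyp3a41b 0% to 0.00809% of the Cyp3a11 count. These 3 members share stretches with Cyp3a11, as given above. Whether reads from Cyp3a11 account for part of their counts was not tested.

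Cyp3a59 and Cyp3a25, the pair with 97.5% identical coding sequence, had ratios of 35.1 and 3.06. Cyp3a59 had 13301, 3839 and 14881 normalized counts in HFD PCN replicates 5, 11 and 27, against 206.9, 532.4 and 174 in HFD Vehicle replicates 15, 23 and 55. Without HFD Vehicle replicate 23 its ratio was 56, and its adjusted p over all libraries was 6.87e-07 (the authors' deposited table). Cyp3a25, which encodes a steroid-oxidising form of adult liver, had 33247, 17138 and 33431 normalized counts in HFD PCN, against 9247, 12743 and 5411 in HFD Vehicle. For Cyp3a25 the adjusted p was 0.000506 (the authors' deposited table), and its groups did not overlap either. The normalized count of Cyp3a59, whose transcript is close in length, was 22.4% to 44.5% of that of Cyp3a25 in HFD PCN and 2.24% to 4.18% in HFD Vehicle, ranges that did not overlap. The difference between the 2 genes' responses was not tested in a model.

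Cyp3a13, the member outside the cluster, had 8100, 5693 and 8079 normalized counts in HFD PCN and 10382, 7379 and 9405 in HFD Vehicle. The groups overlapped. The ratio was 0.805, and edgeR's quasi-likelihood test gave an unadjusted p of 0.17 and an adjusted p of 1 for Cyp3a13. Inside the span of Cyp3a13 lies the processed pseudogene Gm15502 (chr5:137896752-137896959), which fell 4.73-fold, to 16.2 ± 8.5 normalized counts in HFD PCN, against 76.8 ± 37.4 in HFD Vehicle (SD, n = 3 each, adjusted p = 0.00254 in the authors' deposited table).

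How many members passed depended on the tool. With edgeR's quasi-likelihood test and Benjamini-Hochberg adjustment over the estimated 25879 genes, 2 of 7 members passed between HFD PCN and HFD Vehicle, where 0.0618% of all genes rose. They were Cyp3a44 (adjusted p = 0.0135) and Cyp3a41b (adjusted p = 0.0333). Genes without counts in both groups could not be tested by edgeR, so the share of 0.0618% is a lower bound. Cyp3a59 had 0.0533 and Cyp3a11 had 0.0671 as edgeR adjusted p. With 1 library left out, edgeR called 4 members without HFD PCN replicate 11, 2 without HFD Vehicle replicate 23, 1 without HFD PCN replicate 5, and 0 without HFD PCN replicate 27 or HFD Vehicle replicate 15 or 55. The share of all genes called in those refits is not given here. A repeated DESeq2 fit called 6 members (1.24% of all genes rose), and a single edgeR fit over 12 libraries also called 6 (0.429% rose).

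**Figure D3:**
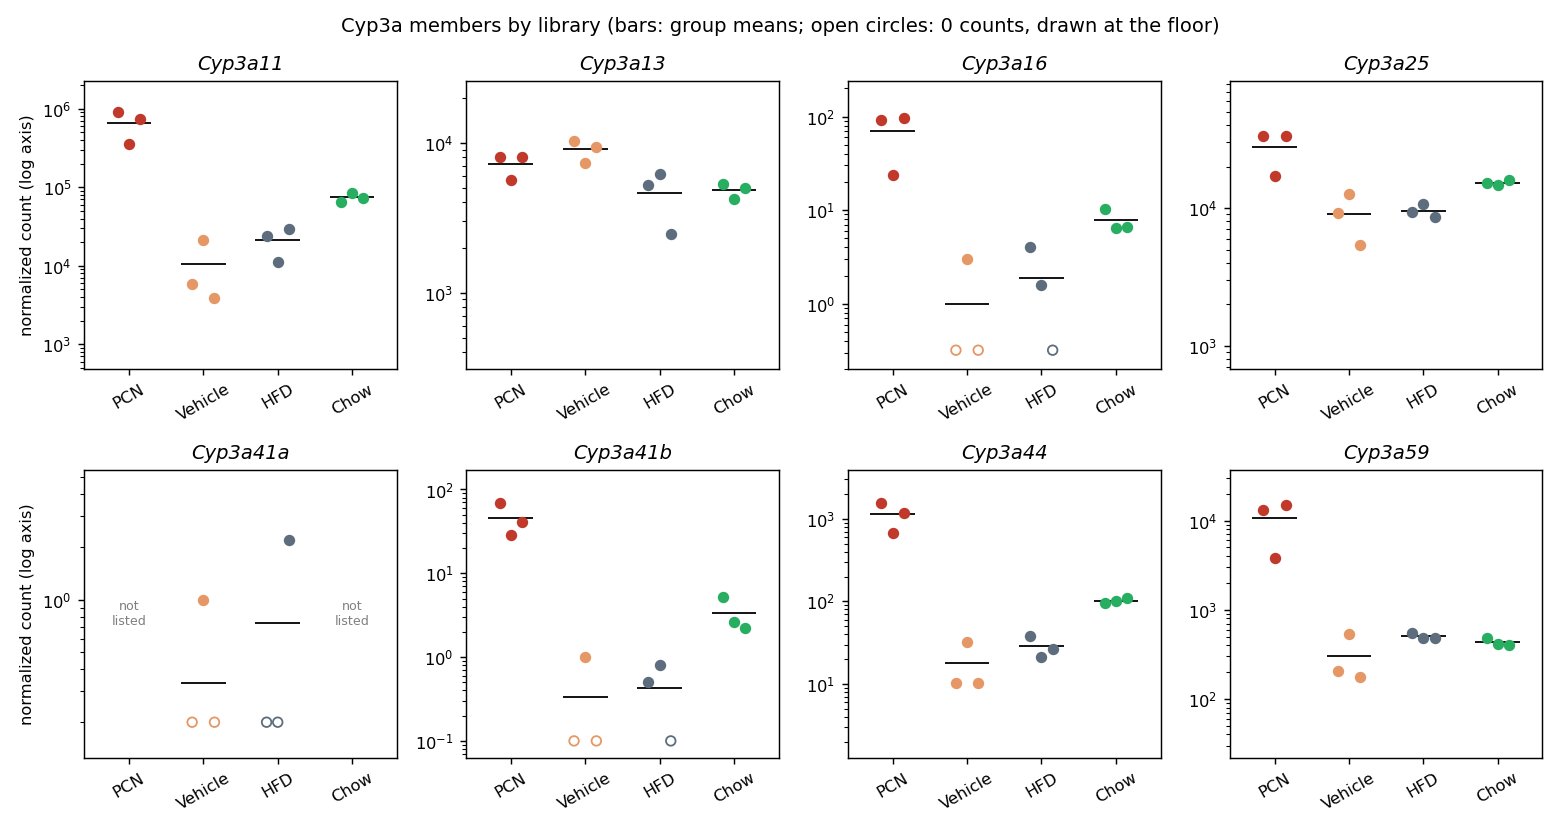
Normalized counts of each member on a log axis, with 1 point per library, in HFD PCN, HFD Vehicle, HFD and Chow; bars are group means, and open circles are libraries with 0 counts. All 3 HFD PCN libraries lie above all other libraries for Cyp3a11, Cyp3a16, Cyp3a25, Cyp3a41b, Cyp3a44 and Cyp3a59, while for Cyp3a13 they overlap those of HFD Vehicle.

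PCN was also set against the uninjected high-fat diet, with the same HFD PCN libraries. In the authors' deposited table, Cyp3a11, Cyp3a16, Cyp3a25, Cyp3a41b, Cyp3a44 and Cyp3a59 rose, that is 6 of 8, and 0 fell, where 1.9% of 25656 genes rose and 1.26% fell. Cyp3a11 was 31.1-fold higher, with the HFD PCN values above and 23754, 11174 and 29631 normalized counts in HFD replicates 4, 30 and 38. Cyp3a44 was 39.7-fold, Cyp3a59 21.1-fold and Cyp3a25 2.92-fold higher. Cyp3a16 was 37.8-fold higher, and 86.5-fold higher without HFD replicate 4, which held 8 of its 10 HFD counts. Cyp3a41b had 182 counts in HFD PCN and 2 in HFD, a summed ratio of 99.2 with an interval of 27.1 to 825; 1 of the 2 HFD counts was in replicate 30, without which its ratio of means was 185. Cyp3a13 was 1.57-fold higher with overlapping groups and did not pass. With edgeR, 5 members passed (0.331% of all genes rose), all of the 6 except Cyp3a25, which had an adjusted p of 0.0631. The repeated DESeq2 fit and the edgeR fit over 12 libraries each called 6 (1.71% and 0.748% of all genes rose). With 1 library left out edgeR called 0 members without HFD replicate 4, 1 without HFD replicate 30 or HFD PCN replicate 27, 2 without HFD PCN replicate 5, 3 without HFD replicate 38 and 6 without HFD PCN replicate 11. The share of all genes called with 1 library left out is not given here. Markers of several cell types differed in the same comparison. Hepatocyte markers summed to 930389 to 1456453 normalized counts in HFD PCN and 1542995 to 2144294 in HFD, with 1 of 8 higher and 1 lower in the authors' deposited table. The stellate markers Col1a1, Col1a2 and Col3a1 summed to 1354 to 2118 in HFD PCN and 2597 to 4302 in HFD, and 2 of 7 stellate markers fell. The endothelial marker Lyve1 fell 1.66-fold (1 of 6 endothelial markers). Their part in the Cyp3a results was not tested.

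PCN was further set against regular chow. Of the 8 members 7 rose in the authors' deposited table, all but Cyp3a41a, where 4.43% of 25100 genes rose. Cyp3a59 was 24.7-fold higher, with 487.5, 409.7 and 399.1 normalized counts in Chow replicates 8, 17 and 19. Cyp3a41b was 13.9-fold, Cyp3a44 11.1-fold, Cyp3a16 9.04-fold and Cyp3a11 8.96-fold higher. The ratios of Cyp3a25, at 1.83, and of Cyp3a13, at 1.5, were smaller. Cyp3a25 had an adjusted p of 0.00251 and Cyp3a13 of 0.0145 (the authors' deposited table), and neither passed edgeR (adjusted p = 0.164 and 0.197 in that order). The other 5 members passed edgeR, where 1.94% of all genes rose. In the edgeR fit over 12 libraries 5 passed (2.8% rose), and in the repeated DESeq2 fit 7 (3.65% rose). With 1 library left out edgeR called 2 members without Chow replicate 19 and 3 without Chow replicate 8 or 17. Without an HFD PCN library it called 4 to 6. The share of all genes called in these refits is not given here. Hepatocyte markers were lower in the same comparison: 6 of 8 fell in the authors' deposited table, and the 7 markers with counts in 12 libraries summed to 930389 to 1456453 normalized counts in HFD PCN and 2216069 to 2494530 in Chow. Of 7 stellate markers 3 rose in the same table, Col1a1 3.82-fold, Col1a2 1.77-fold and Col3a1 3.2-fold. The macrophage marker Cd68 rose 1.83-fold. Of 5 cholangiocyte markers Krt19 rose 6.52-fold and Sox9 fell 2.16-fold. The part of these markers in the Cyp3a results was not tested.

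The diet alone was compared in HFD and Chow, both without injection. In the authors' deposited table, 3 of the 8 members fell with the high-fat diet and 0 rose, where 2.05% of 25255 genes fell and 2.81% rose. Cyp3a11 had 23754, 11174 and 29631 normalized counts in HFD replicates 4, 30 and 38, against 64838, 85297 and 73572 in Chow replicates 8, 17 and 19. The groups did not overlap, and Cyp3a11 was 3.47-fold lower with HFD (adjusted p = 3.17e-07 in the authors' deposited table). Cyp3a44 had 37.7, 21.2 and 26.6 normalized counts in HFD and 95.2, 102.1 and 109.4 in Chow. It was 3.59-fold lower with HFD (adjusted p = 4.13e-07 in the authors' deposited table), and its groups did not overlap. Cyp3a25 had 9412, 10630 and 8687 in HFD and 15110, 14806 and 15901 in Chow, again with no overlap, and was 1.59-fold lower with HFD (adjusted p = 3.65e-06 in the authors' deposited table).

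The other members did not pass between HFD and Chow. Cyp3a16 had 10 counts in HFD and 23 in Chow, and Cyp3a41b had 2 and 10. Cyp3a59 had 542.5, 487.4 and 488.3 normalized counts in HFD and 487.5, 409.7 and 399.1 in Chow, a ratio of 1.17 with overlapping groups. Whether it differed from its near-identical partner Cyp3a25 in this was not tested. Cyp3a13 had 5259, 6202 and 2453 normalized counts in HFD and 5330, 4229 and 5020 in Chow, a ratio of 0.954. The median log2 ratio was -1.79 over the 7 members and 0.09 over the 2870 genes with counts in both groups. All of these genes, and the 7 members, were called in at least 1 comparison with Chow. Cyp3a13, Cyp3a16, Cyp3a41b and Cyp3a59 had Chow counts only through comparisons with an injected group. The medians therefore do not describe all genes.

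The calls between HFD and Chow depended on the test. With edgeR 1 member passed (0.111% of all genes fell), Cyp3a44 at an adjusted p of 0.0427, while Cyp3a11 had 0.0899 and Cyp3a25 had 0.139. The repeated DESeq2 fit called 3 (1.2% of all genes fell). In the edgeR fit over 12 libraries 0 passed (0.174% fell), and 0 passed edgeR with any 1 of the 6 libraries left out, while 5 of 7 had an unadjusted edgeR p under 0.05 with all 6. The share of all genes under that mark is not known here, since edgeR could test called genes alone. The share called with 1 library left out is not given here either. Stellate cell and macrophage markers moved with the diet: 3 of 7 stellate markers (Col1a1, Col1a2 and Col3a1) rose in the authors' deposited table and summed to 2597 to 4302 normalized counts in HFD and 533.5 to 682 in Chow. Of 7 Kupffer cell and macrophage markers 3 rose (Adgre1, Cd5l and Vsig4), at 1.69-fold to 1.79-fold, and 2 of 8 hepatocyte markers fell in the same table. The cholangiocyte marker Spp1 rose 4.1-fold there. Of 6 endothelial markers Lyve1 rose 1.51-fold and Kdr fell 1.47-fold. The 7 hepatocyte markers with counts in 12 libraries summed to 1542995 to 2144294 in HFD and 2216069 to 2494530 in Chow, with no overlap. Serpina1a was 1.74-fold lower in HFD (called), and Cps1, Tat and Ass1 were 1.69-fold, 1.61-fold and 1.57-fold lower (not called). Ttr had a ratio of 1.08. The part of these markers in the Cyp3a results was not tested.

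Vehicle against Chow joins the diet and the injection. Cyp3a11 and Cyp3a44 fell in the authors' deposited table (1.38% of 25519 genes fell) and Cyp3a13 rose (1.72% rose). Cyp3a11 was 7.15-fold lower in HFD Vehicle than in Chow, or 15.5-fold without HFD Vehicle replicate 23 (adjusted p = 0.027 over all 6 libraries in the authors' deposited table). Cyp3a44 was 5.76-fold lower, or 9.94-fold without that replicate. Cyp3a13 went the other way, with 10382, 7379 and 9405 normalized counts in HFD Vehicle, against 5330, 4229 and 5020 in Chow. The groups did not overlap, and Cyp3a13 was 1.86-fold higher (adjusted p = 5.08e-05 in the authors' deposited table). Cyp3a25 was 1.67-fold lower with no overlap between groups and did not pass. Cyp3a59 had 206.9, 532.4 and 174 normalized counts in HFD Vehicle, a range that includes the Chow values. Cyp3a16 had 3 counts in HFD Vehicle and 23 in Chow, Cyp3a41b had 1 and 10, and neither passed. With edgeR 0 members passed (0.223% of all genes rose and 0.145% fell), 6 of 7 had an unadjusted p under 0.05 (the share of all genes under that mark is not known here), and 2 passed, Cyp3a11 and Cyp3a44, once HFD Vehicle replicate 23 was left out. The share of all genes called without that replicate is not given here. The edgeR fit over 12 libraries called Cyp3a44 alone (0.321% fell). The repeated DESeq2 fit called the same number as the deposited table, 1 higher and 2 lower (1.65% rose and 1.27% fell). Hepatocyte markers, over the 7 with counts in 12 libraries, summed to 1312073 to 2100844 normalized counts in HFD Vehicle and 2216069 to 2494530 in Chow, with no overlap and 0 of 8 called in the authors' deposited table. The macrophage marker Cd68 had 83.5 to 106.1 in HFD Vehicle and 60.6 to 62.5 in Chow and was not called, and of 5 cholangiocyte markers Spp1 rose 3-fold. The part of these markers in the Cyp3a results was not tested.

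The vehicle injection alone was compared in HFD Vehicle and HFD, the only comparison with counts of all genes. With edgeR's quasi-likelihood test on 13775 genes, 0 members passed after adjustment, of the 5 that its filter kept, where 0.00726% of all genes passed. At an unadjusted p under 0.05 there was 1 member, Cyp3a13, where 12.5% of all genes passed that mark. The authors' deposited table also called 0 members, where 0.792% of 26015 genes were called, and a repeated DESeq2 fit called 0 (2% of genes called). At an unadjusted p under 0.05 the authors' deposited table had 2 members, Cyp3a13 and Cyp3a59, where 6.31% of genes were below that mark. Cyp3a13 was 1.95-fold higher in HFD Vehicle, at 10382, 7379 and 9405 normalized counts, against 5259, 6202 and 2453 in HFD, and the groups did not overlap (edgeR unadjusted p = 0.0157, adjusted p = 0.308). Cyp3a11 was 2.06-fold lower in HFD Vehicle with overlapping groups (edgeR adjusted p = 0.517), or 4.47-fold lower without HFD Vehicle replicate 23. Without that replicate Cyp3a59, 2.66-fold lower in HFD Vehicle, passed edgeR with an adjusted p of 0.0494. The share of all genes called in that refit is not given here. Cyp3a41a had 0, 1 and 0 counts in HFD Vehicle replicates 15, 23 and 55, and 0, 0 and 1 in HFD replicates 4, 30 and 38. Its level was too low for a comparison. Of 6 endothelial markers Lyve1 (2.38-fold) and Cdh5 (1.73-fold) were lower in HFD Vehicle in the authors' deposited table, as was the blood marker Hbb-bs (1.69-fold). Their edgeR adjusted p was 0.16 to 0.184. Of 8 hepatocyte and 7 stellate markers 0 were called. The part of these markers in the Cyp3a results was not tested.

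**Figure D4:**
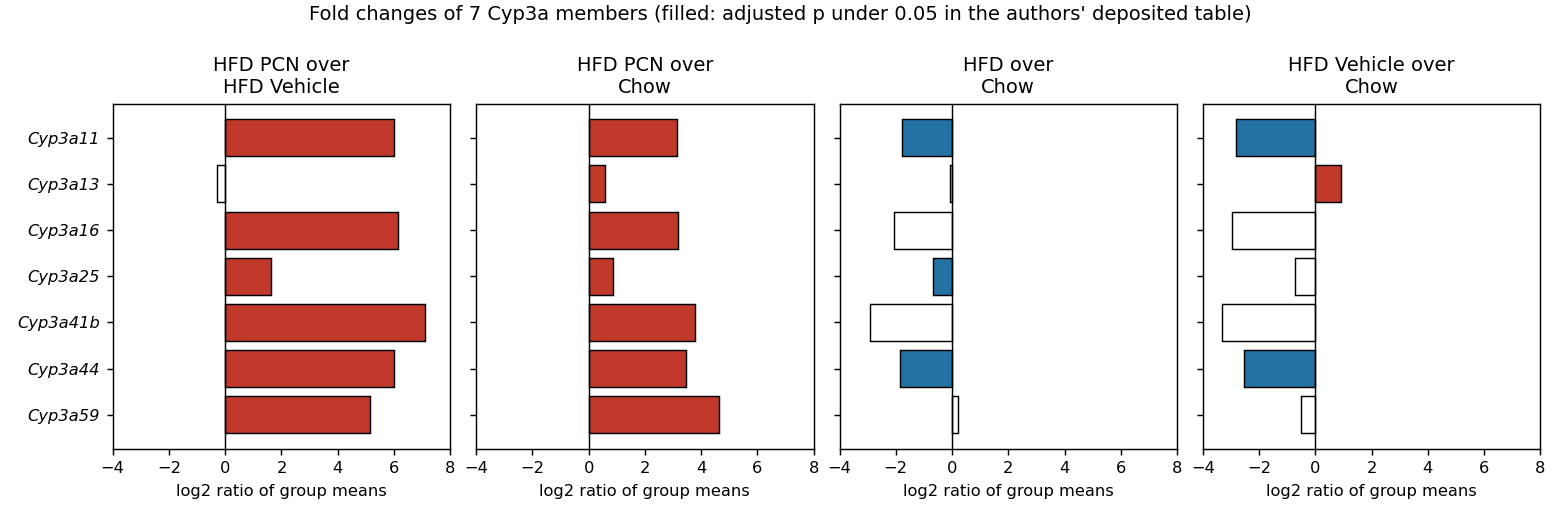
Log2 ratio of group means for 7 members in 4 comparisons, with members down the page. Filled bars had an adjusted p under 0.05 per the authors' deposited table (red higher, blue lower), and open bars did not; the bars of Cyp3a16 and Cyp3a41b against HFD Vehicle rest on 3 counts and 1 count in that group. With PCN 6 bars against HFD Vehicle and 7 against Chow are filled red, and Cyp3a13 is the filled bar that points up between HFD Vehicle and Chow.

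The order of levels can be compared between members only per length, here as normalized counts per kb of the longest coding transcript. In HFD PCN Cyp3a11 led at 285103 ± 120856 per kb, before Cyp3a25 at 13969 ± 4677 (SD, n = 3 each). Cyp3a59 followed at 5364 ± 3001 and Cyp3a13 at 2466 ± 468, ranges that overlapped, then Cyp3a44 at 576 ± 230. In Chow the order was Cyp3a11 (31813 ± 4380), Cyp3a25 (7636 ± 283), Cyp3a13 (1644 ± 192), Cyp3a59 (217 ± 24.3) and Cyp3a44 (52.1 ± 3.62), and no 2 neighbours overlapped. Cyp3a16 and Cyp3a41b came last in both groups, at 40.8 and 22.3 per kb in HFD PCN and 4.51 and 1.61 per kb in Chow.

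In the high-fat-diet groups without PCN no member stood clearly first. In HFD Vehicle Cyp3a25 had 4567 ± 1834, Cyp3a11 4446 ± 4164 and Cyp3a13 3063 ± 518 normalized counts per kb, and neighbours overlapped. In HFD Cyp3a11 had 9181 ± 4023 and Cyp3a25 4788 ± 491, which overlapped, and Cyp3a13 had 1569 ± 660. These places depend on the length used for Cyp3a11. Over the 5.093 kb that all its annotated exons cover, in place of 2.344 kb, Cyp3a11 had 4225 per kb in HFD, against 4597 for Cyp3a25, and 2046 per kb in HFD Vehicle.

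The make-up of the family's counts, not corrected for length, differed between the groups. Cyp3a11 took 94.1%, 92.8% and 92.8% of the summed normalized counts of 7 members in HFD PCN replicates 5, 11 and 27. It took 22.6%, 51.1% and 20.4% in HFD Vehicle replicates 15, 23 and 55, and 60.9%, 39.2% and 71.8% in HFD replicates 4, 30 and 38. In Chow replicates 8, 17 and 19 the share was 75.5%, 81.3% and 77.4%. The 4 ranges thus overlapped only between HFD Vehicle and HFD. Cyp3a13 took 0.844% to 1.49% in HFD PCN and 17.4% to 49.9% in HFD Vehicle.

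The sum over the 7 members does not depend on how reads were split among these genes. It was 960213, 381329 and 804756 normalized counts in HFD PCN, against 25632, 42327 and 18844 in HFD Vehicle, 39010, 28517 and 41286 in HFD and 85876, 104853 and 95010 in Chow. The family's reads made up an estimated 1.99% to 4.98% of all counts in HFD PCN libraries and 0.445% to 0.544% in Chow (error unknown). In HFD Vehicle and HFD, where all counts are known, they were 0.0936% to 0.213% and 0.146% to 0.249%. The sum was 24.7-fold higher in HFD PCN than in HFD Vehicle, 19.7-fold higher than in HFD and 7.51-fold higher than in Chow. It was 2.63-fold lower in HFD than in Chow and 3.29-fold lower in HFD Vehicle than in Chow. Each of these 5 differences had no overlap and an exact two-sided permutation p of 0.10, the smallest that 3 against 3 libraries allow. Between HFD Vehicle and HFD the ratio was 0.798 with overlap (exact permutation p = 0.40).

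Without Cyp3a11 the sum was still 2.55-fold higher in HFD PCN than in HFD Vehicle and 2.28-fold higher than in Chow. It was 1.4-fold lower in HFD than in Chow. Between HFD Vehicle and Chow it differed 1.12-fold with overlapping libraries (exact permutation p = 0.30).

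**Figure D5:**
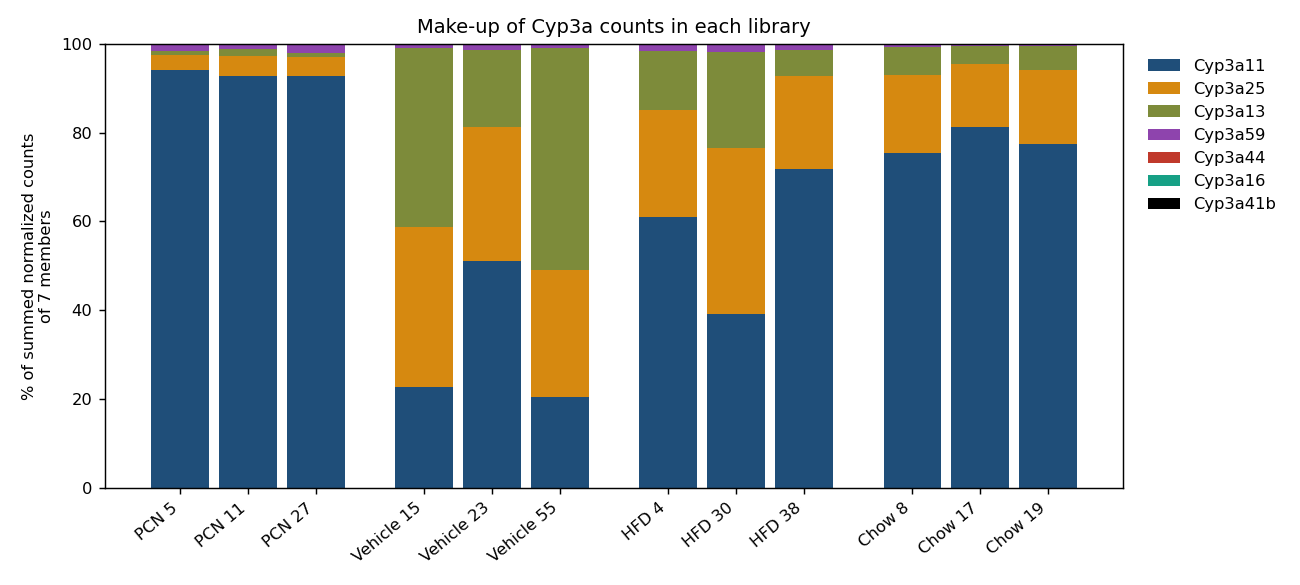
Share of each member in the summed normalized counts of 7 members, in percent, with 1 bar per library ordered as HFD PCN, HFD Vehicle, HFD and Chow. Cyp3a11 takes 92.8% to 94.1% in HFD PCN and 20.4% to 51.1% in HFD Vehicle; Cyp3a44, Cyp3a16 and Cyp3a41b are too small to be seen.

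Within groups the members varied together in part. HFD PCN replicate 11 had the lowest level of the group for 7 of 7 members. HFD Vehicle replicate 23 had the highest for 6 of 7 and the lowest for Cyp3a13. The hepatocyte marker sums of HFD Vehicle replicates 15, 23 and 55 were 2134152, 2205891 and 1399605 normalized counts, beside 5787, 21636 and 3844 of Cyp3a11. The part of these markers in the spread was not tested. In Chow no replicate was highest for all members, and the highest library exceeded the lowest 1.32-fold for Cyp3a11 and 1.07-fold for Cyp3a25. In HFD PCN these spreads were 2.55-fold and 1.95-fold.

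Genes outside the family were ranked by how closely their 12 values followed a member, as the root mean square difference of centred log2 values. The ranking took 1956 genes with a mean of at least 50 and counts in all 12 libraries. Each of these was called in at least 1 comparison, so genes that were never called could not rank. The closest to Cyp3a11 were Ces2a, a carboxylesterase gene, at 1.18 and Cyp2c55, another cytochrome P450 gene, at 1.20. Gstm2-ps1, Gsta2 and Gm8834 followed at 1.29, 1.34 and 1.38, where the spread of Cyp3a11 about its own mean was 2.46. Ces2a averaged 64747 normalized counts in HFD PCN, 3389 in HFD Vehicle, 1890 in HFD and 6612 in Chow, an order of groups that Cyp3a11 shared except for HFD Vehicle and HFD. Ces2a was also the closest gene to Cyp3a16, Cyp3a41b and Cyp3a44. Cyp3a59 was closest to the processed pseudogenes Gstm2-ps1 at 0.55 and Gm8834 at 0.66, then to Nebl at 0.77.

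Cyp3a25 and Cyp3a13 had other companions. Cyp3a25 was closest to the glucuronosyltransferase gene Ugt2b35 (0.27), to Ces2c (0.32) and to Creg1 (0.34). Cyp3a13 was closest to Il13ra1 (0.21), a receptor subunit for interleukin 13, to Cpb2 (0.25), a carboxypeptidase of plasma, and to Por (0.26). Por averaged 20283 normalized counts in HFD PCN, 19004 in HFD Vehicle, 10799 in HFD and 11114 in Chow. Like Cyp3a13 it was higher in both injected groups than in Chow in the authors' deposited tables.

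Other target genes of PXR and CAR rose with PCN as well. Of 42 listed genes outside the family, 21 rose and 0 fell between HFD PCN and HFD Vehicle in the authors' deposited table. Over all genes 1.07% rose and 0.641% fell. With edgeR 5 of the 42 rose (Cyp2c55, Ces2a, Gstm1, Gstm3 and Ugt1a9), where 0.0618% of all genes rose. Of the 21, those with the largest deposited means were Ces2a (19.1-fold), Gstm1 (8.23-fold), Gstm3 (315-fold), Cyp2c29 (3.5-fold), Cyp2a5 (2.96-fold) and Aldh1a1 (2.09-fold). They encode a carboxylesterase, 2 glutathione transferases, 2 cytochromes P450 and an aldehyde dehydrogenase. Cyp2b10, the classical CAR target, was called in no HFD PCN table, so its level there was not analysed here; it averaged 3374 ± 2258 normalized counts in HFD Vehicle and 2722 ± 1726 in HFD (SD, n = 3 each, edgeR adjusted p = 0.872). Between HFD and Chow the same 42 genes were mixed, with 8 that rose and 5 that fell in the authors' deposited table. Over all genes 2.81% rose and 2.05% fell. Among the 42, Ces2a was 3.5-fold, Cyp2c29 2.14-fold and Cyp2c50 2-fold lower in HFD. Cyp2b9 was 68.2-fold, Aldh1b1 2.52-fold and Gstm2 2-fold higher in HFD.

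Receptors and regulators of the family gave different calls against each group. Of 25 listed genes 0 rose (1.07% of all genes) and 2 fell (0.641%) between HFD PCN and HFD Vehicle in the authors' deposited table. They were Cebpb, 1.66-fold lower, and Nr0b2, a corepressor also called SHP, 2.47-fold lower, with edgeR adjusted p of 0.209 and 0.439. Nr1i3 averaged 5739 ± 802 normalized counts in HFD PCN and 5407 ± 826 in HFD Vehicle (SD, n = 3 each) and did not pass. In the authors' deposited tables Nr1i3 rose 1.64-fold in HFD PCN against HFD, 1.65-fold in HFD PCN against Chow and 1.55-fold in HFD Vehicle against HFD. In HFD PCN against Chow, Hnf4a (1.57-fold lower), Foxa3 (1.89-fold) and Nr0b2 (2.92-fold) fell. Nr1i2 was called in no HFD PCN table, so its level there was not analysed here. It averaged 2221 ± 235 in HFD Vehicle, 1986 ± 106 in HFD and 1522 ± 177 in Chow. Against Chow, Nr1i2 rose 1.46-fold and Nr1i3 1.55-fold in HFD Vehicle in the authors' deposited table. Between HFD and Chow 4 of the 25 fell in the authors' deposited table, where 2.05% of all genes fell. The 4 were Hnf4a (1.46-fold lower), Cebpa (1.32-fold), Foxa3 (1.84-fold) and Nr0b2 (2.33-fold). Hnf4a, Cebpa and Foxa3 encode liver-enriched transcription factors. Their edgeR adjusted p was 0.122 to 0.427.

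Genes that supply electrons and heme to the enzymes were called in both directions. Of 15 listed, 4 rose (1.07% of all genes) and 1 fell (0.641%) with PCN against vehicle in the authors' deposited table. The 4 were Cyb5a (1.88-fold), Cyb5b (1.59-fold), Cyb5r3 (1.57-fold) and Pgrmc1 (1.68-fold). Cyb5a and Cyb5b encode cytochromes b5, Cyb5r3 their reductase, and Pgrmc1 a heme-binding partner of cytochromes P450. Alas1, which encodes the first enzyme of heme synthesis, fell 2.04-fold, to 18760 ± 6932 normalized counts in HFD PCN, against 38305 ± 2240 in HFD Vehicle (SD, n = 3 each). The edgeR adjusted p of these 5 genes was 0.228 to 0.434. Against HFD, Por, Cyb5a, Pgrmc1 and Alad rose with PCN in the authors' deposited table. Cyb5b, Cyb5r3 and Alas1, at ratios of 1.29, 0.976 and 0.632, did not pass. Against Chow, Por, Cyb5a, Cyb5b, Alad, Uros and Hmox1 rose in the authors' deposited table. There Cyb5r3 and Alas1 had ratios of 1.06 and 0.923 and did not pass. In HFD Vehicle, Cyb5r3 fell 1.61-fold against HFD and 1.49-fold against Chow, and Alas1 rose 1.89-fold against Chow, in the authors' deposited tables. Alas1 had a ratio of 1.29 between HFD Vehicle and HFD and did not pass. Between HFD and Chow 2 of the 15 rose in the authors' deposited table, where 2.81% of all genes rose. They were Alas1 (1.46-fold) and Uros (1.51-fold), with edgeR adjusted p of 0.478 and 0.13. Por had a ratio of 1.07 between HFD PCN and HFD Vehicle and did not pass there. In the authors' deposited tables Por rose in HFD PCN, 1.88-fold against HFD and 1.83-fold against Chow. In HFD Vehicle it rose 1.76-fold against HFD and 1.71-fold against Chow. The edgeR adjusted p of these rises of Por was 0.0725 to 0.237.

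Genes around the family were also counted. Of 78 other genes that start within 500 kb of a member, 0 rose and 1 fell between HFD PCN and HFD Vehicle. The 1 that fell was the pseudogene Gm15502 named above. Over all genes 1.07% rose and 0.641% fell in the authors' deposited table. Between HFD and Chow 1 rose (Pcolce, 1.97-fold) and 2 fell (Agfg2, 1.43-fold lower, and Gjc3, 3.92-fold lower). Over all genes 2.81% rose and 2.05% fell in that comparison, in the authors' deposited table.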

How the data were processed

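Liver RNA was sequenced in 12 libraries, and replicate numbers differ between the 4 groups. The tools HISAT2, HTSeq and DESeq2 and the build GRCm38 (mm10) are named in the submitters' processing notes, without versions or settings. For each of 6 pairs of groups the authors deposited raw counts per gene, a mean normalized count, and a log2 fold change with its error, p-value and adjusted p-value, per the file headers. The table of HFD Vehicle against HFD holds all genes and the other 5 list called genes alone. Counts and deposited means gave back the size factors, which differed by at most 0.52% from table to table. Counts were tested with edgeR 4.0.16 and DESeq2 1.42.0 in R 4.3.3. For the 5 tables of called genes, edgeR took the dispersion trend of the complete table and adjusted over the estimated number of genes tested. Genes without counts in both groups could not be tested there. The edgeR and repeated DESeq2 shares of all genes are thus lower bounds in those 5 comparisons. The adjusted p of edgeR may be too high there for the same reason. The scripts were tested on simulated data. Gene starts counted from 0 were raised by 1, and GENCODE M21 then gave the same coordinates for 95.5% of 25993 genes. Promoters matched for 8 of 8 members by symbol and come from RefSeq on GRCm38.p6. Sequences were aligned globally with Biopython 1.88.

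The members and gene lists were chosen with earlier results of these data known. Beside the members, the text names the closest genes by pattern, up to 6 called genes of each list with the largest deposited mean, and Nr1i2, Nr1i3, Por and Cyp2b10. Gm15502, Pcolce, Agfg2 and Gjc3 belong to the list of neighbours. Alternatives were other tools, scalings, means and filters and each library left out.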

Additional observations from a re-analysis of the deposited data

How the results depend on the processing

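How many members were called depended on the tool. A repeated DESeq2 fit gave the deposited counts of called members in all 6 comparisons. Where edgeR differed by over 1.5 times, it called 2 in place of 6 between HFD PCN and HFD Vehicle, 1 in place of 3 between HFD and Chow (0 in the fit over 12 libraries), and 0 in place of 3 between HFD Vehicle and Chow (1 in the fit over 12 libraries). With each library left out in turn, edgeR called 0 to 4 members between HFD PCN and HFD Vehicle, 0 to 6 between HFD PCN and HFD, 2 to 6 between HFD PCN and Chow, 0 in each case between HFD and Chow, 0 to 2 between HFD Vehicle and Chow, and 0 to 1 between HFD Vehicle and HFD. Leaving out Cyp3a11 changed the log2 ratio of the summed level to 1.35 in HFD PCN over HFD Vehicle (4.63 with it), 1.68 in HFD PCN over HFD (4.30), 1.19 in HFD PCN over Chow (2.91), -0.49 in HFD over Chow (-1.39) and -0.16 in HFD Vehicle over Chow (-1.72). Between HFD Vehicle and HFD it turned the sign, to 0.33 from -0.33. With each library left out in turn, that log2 ratio was 4.36 to 5.01, 4.03 to 4.60, 2.64 to 3.21, -1.50 to -1.25, -2.10 to -1.49 and -0.71 to -0.09 in the same order. Of 336 values of members' folds under these settings, 309 moved by at most 1.5-fold. The other 27 moved by more or had no ratio left, where a group mean became 0. Of the folds of called members 0 changed sign. The cause of these changes was not tested. Shares of all genes called with 1 library left out are not given here. No paired analysis was possible because the replicate numbers differ between groups. Members with few counts (Cyp3a16, Cyp3a41a and Cyp3a41b) are limited by depth outside HFD PCN.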
